A study of Mus musculus with 20 samples.

Results

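The comparison described here set bone-marrow-derived macrophages (BMDM) against microglia (MG) sorted from the same GL261 tumours, GL261 being a mouse glioma cell line of the C57BL/6 strain. It rests on 6 of the 20 libraries of the study, those titled GL261 BMDM and GL261 MG, with 3 libraries a group. Each tumour, numbered 80766, 80767 and 80769 in the titles, gave 1 BMDM and 1 MG library, and the study's design text says that the cells were matched within a tumour. The other 14 libraries, from a genetically engineered glioma model (GEMM), normal brain and blood, enter only where they are named.

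All 6 libraries hold polyadenylated RNA from C57BL/6 mice, amplified with a Smart-Seq kit. In both groups the labels' sort kept CD45+ CD11b+ cells and left out Ly6C+ and Ly6G+ cells. BMDM were GFP+ tdTomato- and MG were GFP- tdTomato+, and the labels' text names the Rosa26:mTmG reporter switched by Flt3:Cre, which marks descendants of blood-forming progenitors that used the Flt3 promoter. Under that reporter the MG gate takes any CD11b+ cell that had not switched, and the BMDM gate any that had. The tumour text shared by all labels describes injections at 5 to 6 weeks of age and the DF1 cells (RCAS-PDGFB-HA and RCAS:shP53) of the GEMM. The sources used here do not give how GL261 tumours were made, in which host alleles or for how long. The 3 tumours share 1 cell line, and no treatment is named for either group.

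Microglia settle in the brain before birth, renew themselves there and survey the tissue with purinergic and fractalkine receptors under the transcription factor Sall1. Bone-marrow-derived macrophages enter a glioma from blood as Ccr2+ monocytes and then mature into tissue macrophages that can present antigen on MHC class II, take up lipid and debris and release growth factors and chemokines. Both cell types carry CD45 and CD11b, so a lineage mark is used to separate them.

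Library totals ran from 18850626 to 22088979 counts in BMDM and from 18113450 to 20934656 counts in MG, and levels are CPM (counts divided by TMM-scaled library size), always in the order 80766, 80767 and 80769. Tumour 80769 stood apart from the other 2 in both of its libraries. The summed level of 12 microglia markers was 1779, 2208 and 1032 CPM in BMDM and 10554, 8612 and 2558 CPM in MG, so the MG library of tumour 80769 carried the smallest microglia signal of its group. The summed level of 12 markers of monocyte-derived macrophages was 1543, 1676 and 30662 CPM in BMDM and 641, 589 and 5847 CPM in MG. That of 8 border-associated macrophage markers was 786, 772 and 4372 CPM in BMDM and 96.4, 49.6 and 836 CPM in MG. Tumour 80769 was highest in both groups for both sums. Chi3l3 alone gave 25338 CPM (BMDM) and 4625 CPM (MG) of the monocyte-derived macrophage sum in that tumour. Not every member followed, as Itga4, Ly6c2, Napsa and F13a1 were lowest in BMDM of tumour 80769. Log2 ratios of BMDM over MG correlated across 14046 genes at r = 0.76 between tumours 80766 and 80767, and at 0.59 and 0.50 between these and tumour 80769, over genes that are not independent replicates. Counts and calls that change without 1 of the tumours are given beside the result, with that tumour named. Each such fit rests on the other 2 tumours only, so the spread between tumours is poorly estimated there. Very small adjusted p values of these fits are therefore not firmer than those with all tumours, and a lost call can reflect the fewer libraries.

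Among markers of other cells, 8 markers of oligodendrocyte precursors or glioma cells summed to 245, 485 and 397 CPM in BMDM and 580.2, 738 and 1074 CPM in MG, and 7 of the 8 were lower in BMDM. T cell markers stayed at or under 31.0 CPM in sum in each BMDM library and neutrophil markers at 232, 204 and 223 CPM in BMDM and 311, 325 and 118 CPM in MG. Endothelial markers, Ly6c1 among them, summed to 194, 125 and 393 CPM in BMDM and 115, 64.1 and 152 CPM in MG. NK cell markers summed to 27.7, 42.0 and 41.3 CPM in BMDM and 17.1, 17.2 and 11.7 CPM in MG. The astrocyte and oligodendrocyte sums were lower in BMDM of every tumour. Ptprc, the gene of CD45, was at 1186, 891 and 531 CPM in BMDM, against 407, 359 and 134 in MG, and all BMDM lay above all MG (log2 1.61 ± 0.19, adjusted p = 0.00826). Itgam, the gene of CD11b, was at 312, 574 and 252 CPM in BMDM, against 1314, 970.2 and 283 in MG, and the groups overlapped (log2 −0.998 ± 0.39, adjusted p = 0.135). Ly6c2, whose antigen the sort left out, was higher in BMDM, at 83.7, 57.0 and 24.3 CPM in BMDM, against 4.09, 0.942 and 2.86 in MG (log2 4.33 ± 0.54, adjusted p = 0.00968), although its reads may be shared with its near-identical neighbour Ly6c1, and Ly6g is not analysed here. Flt3, the promoter of the lineage mark, was at 16.1, 11.8 and 60.6 CPM in BMDM, against 0.914, 0.397 and 6.07 in MG, with all BMDM above all MG (log2 3.94 ± 0.33, adjusted p = 0.00409). In bulk RNA, fewer cells of a type and less RNA per cell cannot be told apart, and this holds for every difference below. Ly6c2 (adjusted p = 0.0814) was not called without tumour 80766.

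Of 14046 genes tested, 1467 (10.4%) were higher and 1008 (7.18%) lower in BMDM at an adjusted p under 0.05 in edgeR's quasi-likelihood test with the tumour as a block and Benjamini-Hochberg adjustment. The median log2 fold change over all genes tested was −0.03. All 3 BMDM libraries lay above all 3 MG libraries for 2582 genes (18.4%) and below them for 2170 (15.4%). Below, a log2 value in brackets is the fitted log2 fold change of BMDM over MG with its SE, and each adjusted p is from this edgeR fit. For gene lists, bracketed counts are those with tumour 80766, 80767 or 80769 left out, in that order. In every tumour the BMDM to MG ratio passed 2-fold upward for 719 genes and downward for 541. Without tumour 80769, 2345 of 13580 genes (17.3%) were higher and 2133 (15.7%) lower, so the counts were 1.5 times the full ones or more although fewer libraries were used. Without tumour 80766 they were 437 and 81 of 13671 genes tested, and without tumour 80767 496 and 236 of 13653. Counts of list members below are to be read beside the share of all genes called in the same fit. None of the 2475 called genes changed sign when any tumour was left out.

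The 12 largest rises began with Cd209a, Gdf3, Kmo and Il1r2, which act in antigen uptake, TGF-beta type signalling, tryptophan breakdown and interleukin 1 control. Cd209a, a DC-SIGN-type lectin of monocyte-derived dendritic cells, was at 7.28, 1.09 and 63.8 CPM in BMDM, against 0, 0 and 0 in MG, and with no read in any MG library it was at least 533-fold higher against a floor of 3 counts over the group. Il1r2, the decoy receptor that takes up interleukin 1 without signalling, was at 477, 274 and 236 CPM in BMDM, against 15.1, 7.64 and 3.41 in MG (log2 5.39 ± 0.29, adjusted p = 0.00297; chromosome 1, 40084692 to 40125230 in GRCm38.p6). Kmo, kynurenine 3-monooxygenase of the tryptophan pathway, was at 59.9, 27.2 and 73.9 CPM in BMDM, against 1.54, 0.694 and 1.33 in MG (log2 5.46 ± 0.21, adjusted p = 0.00297). A gene could be among these 12 only if its groups did not overlap, so that trait is no result for any of them. All 3 genes stayed called without tumour 80769.

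Gdf3, a ligand of the TGF-beta superfamily, was at 32.0, 42.3 and 8.03 CPM in BMDM, against 0.818, 0.694 and 0.117 in MG, a 50.7-fold difference (log2 5.66 ± 0.27, adjusted p = 0.00297). Ocstamp, a membrane protein needed for osteoclast and giant cell fusion, was at 274, 203 and 119.9 CPM in BMDM, against 8.61, 6.40 and 6.89 in MG (log2 4.69 ± 0.24, adjusted p = 0.00297). Napsa, the aspartic protease napsin A, was at 82.9, 77.4 and 70.5 CPM in BMDM, against 2.21, 1.04 and 2.58 in MG, nearly level across the BMDM of the 3 tumours (log2 5.33 ± 0.31, adjusted p = 0.00297). Cdh1, E-cadherin, was highest in tumour 80769, at 40.7, 24.4 and 236 CPM in BMDM, against 1.97, 0.446 and 8.97 in MG (log2 4.80 ± 0.28, adjusted p = 0.00297). Ccr7, the receptor that guides dendritic cells to lymph nodes, was likewise highest there, at 81.1, 54.3 and 399 CPM in BMDM, against 2.93, 0.248 and 40.8 in MG (log2 4.68 ± 0.72, adjusted p = 0.0157). Dpp4, a peptidase that trims chemokines, and Gpr171, a G protein-coupled receptor, followed (4.62 ± 0.49, adjusted p = 0.00621 and 4.76 ± 0.45, adjusted p = 0.00505). Sirpb1b, a SIRP family receptor with near-identical copies, and Ifitm1, an interferon-induced membrane protein, completed the 12 (5.36 ± 0.43, adjusted p = 0.00388 and 4.66 ± 0.42, adjusted p = 0.00466). Of the 12, Ifitm1 was not called without tumour 80769 (log2 fold change 4.63, adjusted p = 0.0689). Ccr7 (adjusted p = 0.107) was not called without tumour 80766.

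The 12 largest falls included Siglech, Sall1 and Slc2a5, which are known from microglia. Siglech, a microglial sialic acid lectin, was at 2.25, 2.46 and 3.73 CPM in BMDM, against 541, 396 and 74.9 in MG, a 92.5-fold difference (log2 −6.53 ± 0.83, adjusted p = 0.00992; chromosome 7, 55768154 to 55779448). Sall1, the transcription factor that holds microglial identity, was at 0.578, 1.09 and 1.24 CPM in BMDM, against 152, 109 and 29.5 in MG (log2 −6.35 ± 0.65, adjusted p = 0.00584). Slc2a5, the fructose transporter GLUT5, was at 0.635, 0.686 and 0.622 CPM in BMDM, against 131, 94.2 and 11.2 in MG (log2 −6.54 ± 0.67, adjusted p = 0.00576). In each case MG of tumours 80766 and 80767 were the highest libraries and MG of tumour 80769 was at a fraction of them. That every MG library lay above every BMDM library was a condition for being among these 12. Siglech (adjusted p = 0.058) and Slc2a5 (adjusted p = 0.0516) were not called without tumour 80766.

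Cxcl13, the chemokine that attracts B cells, varied most among MG, at 0, 0.686 and 0.259 CPM in BMDM, against 19.2, 119.7 and 6.38 in MG (log2 −7.02 ± 0.66, adjusted p = 0.00503). Adora1, the adenosine A1 receptor, was at 3.06, 0.972 and 0.0518 CPM in BMDM, against 66.9, 34.8 and 9.63 in MG (log2 −5.06 ± 0.41, adjusted p = 0.00388). Npnt, the integrin ligand nephronectin, was at 2.02, 1.09 and 1.24 CPM in BMDM, against 139.6, 64.5 and 33.6 in MG (log2 −5.62 ± 0.32, adjusted p = 0.00297). Crybb1, a crystallin found in microglia, Lrrc3, Gm4980, Csmd3, Mlph (melanophilin) and Rtn4rl1, a Nogo receptor homologue, made up the rest, with log2 fold changes from −6.36 (Crybb1) to −5.12 (Rtn4rl1) and edgeR adjusted p values between 0.00361 (Gm4980) and 0.0417 (Mlph). All 12 were called without tumour 80769. Crybb1 (adjusted p = 0.0572), Csmd3 (adjusted p = 0.165), Lrrc3 (adjusted p = 0.0571), Mlph (adjusted p = 0.146) and Rtn4rl1 (adjusted p = 0.0617) were not called without tumour 80766. Csmd3 (adjusted p = 0.0899), Mlph (adjusted p = 0.148) and Rtn4rl1 (adjusted p = 0.073) were not called without tumour 80767.

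**Figure D1:**
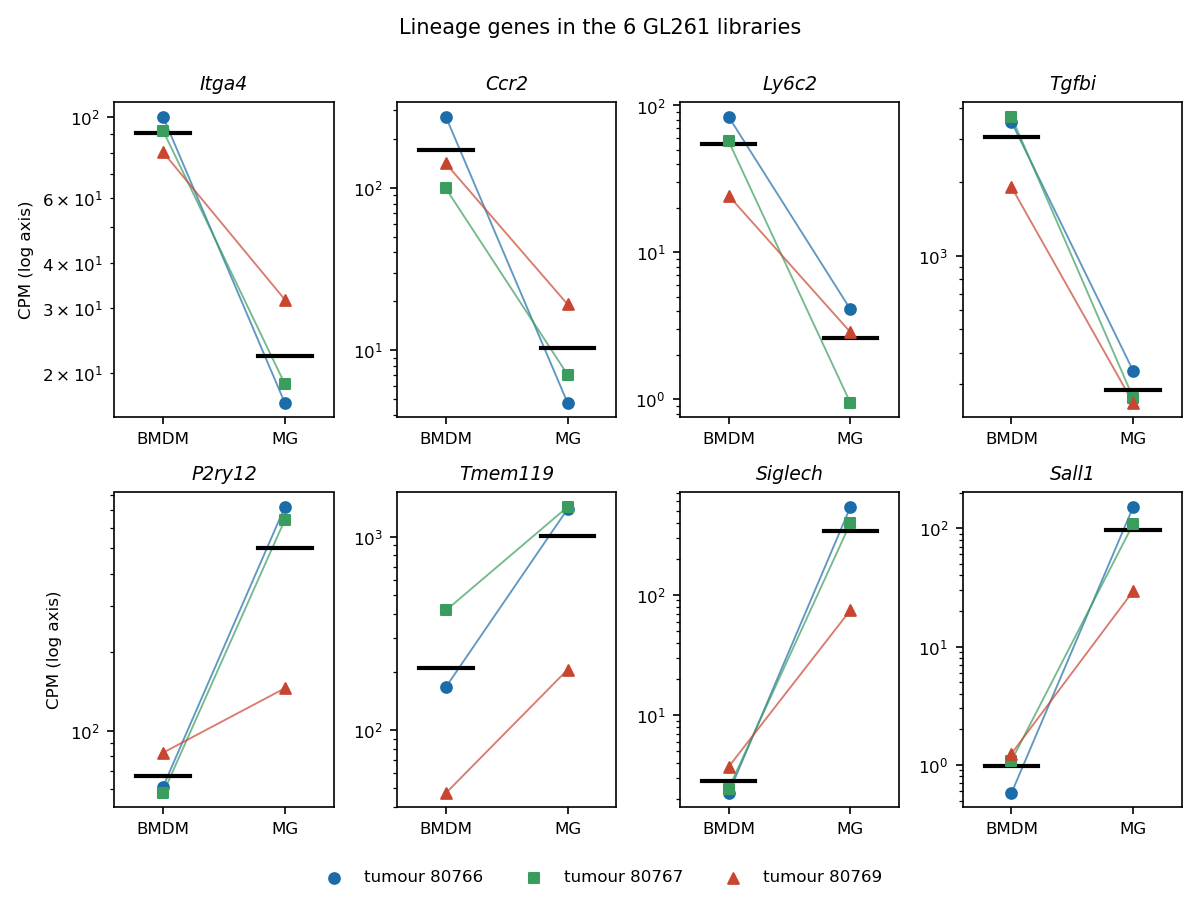
CPM of 8 lineage genes in the 6 GL261 libraries on log axes, with BMDM left and MG right, 1 symbol and line per tumour and black bars at the group means (n = 3). Itga4, Ccr2, Ly6c2 and Tgfbi were higher in BMDM of every tumour, P2ry12, Tmem119, Siglech and Sall1 lower, and for the last 4 the MG library of tumour 80769 was the lowest of its group.

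Microglia identity genes were lower in BMDM as a group. Of 27 surface and secreted genes tested, 0 were higher and 16 lower (6, 8 and 22 lower with 1 left out), with a median log2 fold change of −1.51. P2ry12, the ADP receptor of surveying microglia, was at 61.1, 57.7 and 82.5 CPM in BMDM, against 720.3, 643 and 146 in MG (log2 −2.68 ± 0.63, adjusted p = 0.043). Tmem119, a microglial membrane protein, was at 167, 415 and 47.2 CPM in BMDM, against 1391, 1426 and 205 in MG (log2 −2.32 ± 0.29, adjusted p = 0.00927). BMDM of tumour 80767 held more Tmem119 RNA than MG of tumour 80769, so these groups overlapped, although every tumour's own ratio was below 1. Cx3cr1, the fractalkine receptor, overlapped in the same way at 221, 233 and 35.3 CPM in BMDM, against 668, 543 and 109 in MG (log2 −1.49 ± 0.16, adjusted p = 0.00576). P2ry12 was not called without tumour 80766 (adjusted p = 0.211) or without tumour 80767 (adjusted p = 0.156).

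Sparc, a matrix glycoprotein, was at 81.9, 103 and 79.7 CPM in BMDM, against 1450.3, 902 and 417 in MG (log2 −3.23 ± 0.38, adjusted p = 0.00807). Sgce, epsilon-sarcoglycan, was nearly level across the MG of the 3 tumours, at 8.20, 16.4 and 16.9 CPM in BMDM, against 60.6, 60.6 and 60.7 in MG (log2 −2.20 ± 0.25, adjusted p = 0.00719). Golm1, Gpr56, Gpr34, Olfml3 and Lag3 were also lower, with log2 fold changes of −2.80, −4.79, −2.64, −1.51 and −1.98. Golm1 (adjusted p = 0.0527), Gpr34 (adjusted p = 0.175), Gpr56 (adjusted p = 0.149) and Lag3 (adjusted p = 0.074) were not called without tumour 80766. Golm1 (adjusted p = 0.0531), Gpr34 (adjusted p = 0.101), Gpr56 (adjusted p = 0.0856) and Lag3 (adjusted p = 0.0722) were not called without tumour 80767.

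Among 15 microglia transcription factors, 6 were lower (0, 0 and 1 higher and 1, 2 and 11 lower with 1 left out) and 0 higher, with a median of −1.05. Sall3, a relative of Sall1, was at 2.71, 6.29 and 6.69 CPM in BMDM, against 37.8, 51.2 and 16.8 in MG (log2 −2.70 ± 0.50, adjusted p = 0.0242). The others were the blood and microglia factor Tal1 (log2 −3.18 ± 0.51, adjusted p = 0.0163), Sox4 (log2 −1.36 ± 0.23, adjusted p = 0.019) and the clock factor Bhlhe41 (log2 −2.45 ± 0.48, adjusted p = 0.0265). Mef2c was at 80.6, 57.0 and 38.8 CPM in BMDM, against 227, 163 and 54.9 in MG (log2 −1.18 ± 0.24, adjusted p = 0.0285), so BMDM of tumours 80766 and 80767 lay above MG of tumour 80769. Bhlhe41 (adjusted p = 0.136), Mef2c (adjusted p = 0.133), Sall3 (adjusted p = 0.0882), Sox4 (adjusted p = 0.0864) and Tal1 (adjusted p = 0.106) were not called without tumour 80766. Bhlhe41 (adjusted p = 0.0617), Mef2c (adjusted p = 0.133), Sall3 (adjusted p = 0.0997) and Tal1 (adjusted p = 0.0935) were not called without tumour 80767.

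Monocyte and recruited macrophage genes ran the other way. Of 30 tested, 21 were higher (12, 15 and 21 higher and 0, 1 and 2 lower with 1 left out) and 1 was lower, with a median of 2.13. Itga4, the alpha4 integrin chain CD49D, was at 100.4, 91.99 and 80.3 CPM in BMDM, against 16.5, 18.6 and 31.7 in MG (log2 2.08 ± 0.27, adjusted p = 0.00992; chromosome 2, 79255426 to 79333114), with groups that did not overlap. Ccr2, the receptor for monocyte entry, was at 274, 99.02 and 141 CPM in BMDM, against 4.71, 7.04 and 19.1 in MG (log2 4.11 ± 0.61, adjusted p = 0.0144), but was not called without tumour 80769 (4.81, adjusted p = 0.118). Tgfbi, a matrix protein induced by TGF-beta, was at 3511, 3679 and 1903 CPM in BMDM, against 338, 263 and 250.2 in MG (log2 3.36 ± 0.25, adjusted p = 0.00348).

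Lyz2, lysozyme, was at 13279.7, 9792 and 7568 CPM in BMDM, against 1281, 1127 and 2637 in MG (log2 2.68 ± 0.43, adjusted p = 0.0169), so it was among the most abundant RNAs of BMDM. F13a1, the transglutaminase factor XIII A chain, was at 123, 225 and 106 CPM in BMDM, against 4.43, 6.50 and 21.5 in MG (log2 4.06 ± 0.64, adjusted p = 0.0164). Crip1 and S100a11 were highest in tumour 80769 in both groups and still called (2.38 ± 0.15, adjusted p = 0.003 and 1.998 ± 0.24, adjusted p = 0.00844). Vcan, the proteoglycan versican, was the 1 member lower in BMDM, at 4.85, 10.8 and 8.71 CPM in BMDM, against 13.1, 16.96 and 34.2 in MG (log2 −1.36 ± 0.29, adjusted p = 0.0337). It is also made by glioma cells and oligodendrocyte precursors, whose marker sums above were higher in MG. The part of such RNA in this result was not tested. F13a1 (adjusted p = 0.106), Lyz2 (adjusted p = 0.0733) and Vcan (adjusted p = 0.142) were not called without tumour 80766. F13a1 (adjusted p = 0.0513) and Lyz2 (adjusted p = 0.0943) were not called without tumour 80767.

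Of 25 transcription factors of recruited macrophages and dendritic cells, 6 were higher and 1 was lower (4, 5 and 9 higher and 0, 0 and 6 lower with 1 left out). Runx3, a factor of cytotoxic lymphocytes and dendritic cells, was at 137, 153 and 104 CPM in BMDM, against 23.96, 16.4 and 13.6 in MG (log2 2.88 ± 0.18, adjusted p = 0.003). Ahr, the aryl hydrocarbon receptor, was at 179.98, 60.3 and 201 CPM in BMDM, against 12.7, 7.78 and 33.6 in MG (log2 3.10 ± 0.27, adjusted p = 0.00417). Vdr, the vitamin D receptor, was at 73.9, 50.5 and 98.5 CPM in BMDM, against 4.52, 3.02 and 14.4 in MG (log2 3.58 ± 0.31, adjusted p = 0.00424). Nfil3 and Runx2 were higher too (2.13 ± 0.16, adjusted p = 0.00345 and 3.05 ± 0.41, adjusted p = 0.0108). Klf2, a factor of quiescent cells, was lower at 33.2, 38.8 and 40.8 CPM in BMDM, against 199, 181 and 75.9 in MG (log2 −1.91 ± 0.35, adjusted p = 0.0237). Irf8 was not called, at a log2 fold change of 0.35 ± 0.24 SE. Klf2 (adjusted p = 0.0997) and Runx2 (adjusted p = 0.0628) were not called without tumour 80766. Klf2 (adjusted p = 0.101) was not called without tumour 80767.

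Genes of MHC class II presentation were higher in BMDM: 9 of 16 tested, with 0 lower (6, 4 and 9 higher and 0, 0 and 2 lower with 1 left out) and a median of 0.92. The summed level of 10 dendritic cell markers was 183, 108 and 651 CPM in BMDM and 30.4, 25.6 and 71.02 CPM in MG, 5 of the 10 were higher, 0 lower and none at 0 in all libraries, and their part in the MHC class II result was not tested. Antigen fragments are loaded on the H2-A and H2-E molecules with the help of the invariant chain Cd74 and the H2-DM chaperone, and Ciita is the coactivator that switches these genes on. It is recruited to promoters by factors bound at conserved X and Y box elements. Promoter stretches of 4 called genes and, for contrast, 2 uncalled ones of the same locus on chromosome 17 are printed from RefSeq (GRCm38.p6), from 125 to 11 bases before the annotated start of each gene, on its coding strand. Capitals mark the Y box core GATTGG and the X box pattern AACNGATG on the coding strand only. A match on the opposite strand, as H2-Eb1 has for the Y box core, stays in lower case.
H2-Aa (chr17:34287834-34287948, minus strand, higher): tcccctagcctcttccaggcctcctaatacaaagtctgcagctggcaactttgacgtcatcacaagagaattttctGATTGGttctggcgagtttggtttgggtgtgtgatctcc
H2-Eb1 (chr17:34305742-34305856, plus strand, higher): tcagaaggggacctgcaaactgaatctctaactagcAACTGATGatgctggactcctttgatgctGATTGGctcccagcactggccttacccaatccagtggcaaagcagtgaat
H2-DMb1 (chr17:34153066-34153180, plus strand, higher): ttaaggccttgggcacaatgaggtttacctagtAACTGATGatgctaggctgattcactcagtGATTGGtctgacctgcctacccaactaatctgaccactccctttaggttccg
H2-DMb2 (chr17:34145124-34145238, plus strand, higher): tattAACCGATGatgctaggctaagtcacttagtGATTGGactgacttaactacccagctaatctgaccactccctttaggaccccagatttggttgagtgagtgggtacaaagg
H2-Oa (chr17:34092254-34092368, plus strand, not called): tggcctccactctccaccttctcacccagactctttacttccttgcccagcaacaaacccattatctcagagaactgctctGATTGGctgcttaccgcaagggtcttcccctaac
H2-Ob (chr17:34238780-34238894, plus strand, not called): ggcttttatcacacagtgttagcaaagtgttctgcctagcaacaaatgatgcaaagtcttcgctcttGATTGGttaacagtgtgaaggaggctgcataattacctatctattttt

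Both motifs were searched on both strands of windows from 250 bases before to 50 after each start, and they do not overlap in these stretches. GATTGG stood in 16.1% of 32851 promoters of the same length and in those of 10 of the 12 list members with an entry. The uncalled H2-Oa, H2-Ob, H2-Eb2, Rfx5 and Rfxank were among them. On the coding strand it began 49, 60, 62, 91, 44 and 58 bases before the start in the order printed. AACNGATG stood in 2.32% of all promoters and in those of 5 of the 12, H2-Eb1, H2-DMb1, H2-DMb2, H2-Eb2 and Ctss. A match describes letters in a window and does not show a used site, and called and uncalled members shared the Y box core. The X box pattern did not separate them either, as the uncalled H2-Eb2 and Ctss had it. The called H2-Aa, H2-DMa and Ifi30 did not. H2-Ab1, Cd74, Ciita and Rfxap were not searched.

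Ciita was at 234, 98.97 and 100.1 CPM in BMDM, against 51.04, 28.4 and 21.5 in MG (log2 2.07 ± 0.15, adjusted p = 0.00327), so MG of every tumour held some Ciita RNA and BMDM of the same tumour held more. H2-Ab1, the beta chain of H2-A, was at 19249.9, 13321 and 7420.4 CPM in BMDM, against 3411, 2590.2 and 1711 in MG (log2 2.32 ± 0.22, adjusted p = 0.00493). H2-Aa, its alpha chain, was at 8529, 6144 and 3935 CPM in BMDM, against 2055, 1775 and 1103 in MG (log2 1.89 ± 0.20, adjusted p = 0.00572). Tumour 80769 was lowest in both groups for these chains, and its BMDM still exceeded every MG library. H2-Aa (adjusted p = 0.0644) and H2-Ab1 (adjusted p = 0.0597) were not called without tumour 80767.

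H2-Eb1 and Cd74 were higher too (2.09 ± 0.18, adjusted p = 0.00424 and 1.67 ± 0.22, adjusted p = 0.0108), as were H2-DMb1 and H2-DMb2 (1.66 ± 0.16, adjusted p = 0.00503 and 2.39 ± 0.29, adjusted p = 0.00919). H2-DMa and Ifi30, a thiol reductase of antigen processing, had smaller changes (0.89 ± 0.19, adjusted p = 0.0346 and 0.95 ± 0.19, adjusted p = 0.0279). H2-Oa, a chain of the H2-O molecule that restrains H2-DM, was not called at 22.6, 12.98 and 23.6 CPM in BMDM, against 50.3, 49.1 and 10.1 in MG, and the tumours disagreed (log2 −0.68 ± 0.63, adjusted p = 0.491). Without tumour 80769 it was lower in BMDM (log2 fold change −1.54, adjusted p = 7.95e-04), as was H2-Ob (log2 fold change −1.01, adjusted p = 0.0119). Ctss, the protease that trims the invariant chain, was at 9398, 9743 and 8809.8 CPM in BMDM, against 8891, 8246 and 4260.5 in MG and was not called (log2 0.45 ± 0.27, adjusted p = 0.299). Cd74 (adjusted p = 0.0613), H2-DMa (adjusted p = 0.0955) and Ifi30 (adjusted p = 0.0571) were not called without tumour 80766. Cd74 (adjusted p = 0.133), H2-DMa (adjusted p = 0.137) and Ifi30 (adjusted p = 0.165) were not called without tumour 80767.

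In contrast, MHC class I presentation gave 0 higher and 0 lower of 20 tested with edgeR, while 4 passed an unadjusted p of 0.05 and DESeq2 and limma-voom called 2 and 1 higher (0, 0 and 3 higher and 0, 0 and 1 lower with 1 left out), with a median of 0.24. H2-K1, a class I heavy chain, was at 3740.3, 3926 and 2994 CPM in BMDM, against 3834, 3609 and 1907 in MG. B2m, its light chain, was at 6983, 7162 and 5808 CPM in BMDM, against 7584, 6861 and 4371 in MG. Both overlapped between the groups. Among costimulatory and checkpoint ligands 7 of 17 were higher and 0 lower (4, 4 and 8 higher and 0, 0 and 2 lower with 1 left out). Cd40, a receptor for T cell help, was at 126, 106 and 94.1 CPM in BMDM, against 41.5, 26.8 and 22.7 in MG (log2 1.87 ± 0.15, adjusted p = 0.00388). Pdcd1lg2, the PD-1 ligand PD-L2, was at 75.2, 27.6 and 271 CPM in BMDM, against 5.44, 2.08 and 46.9 in MG (log2 3.29 ± 0.30, adjusted p = 0.00466), with every BMDM library above the MG library of its tumour. Cd274, PD-L1, was at 312, 232 and 185 CPM in BMDM, against 193, 116 and 59.3 in MG (log2 1.10 ± 0.21, adjusted p = 0.0255), and BMDM of tumour 80769 lay below MG of tumour 80766. Il10, an anti-inflammatory cytokine, was at 8.72, 16.8 and 18.6 CPM in BMDM, against 0.481, 0.843 and 1.14 in MG (log2 4.15 ± 0.25, adjusted p = 0.00297). Cd274 (adjusted p = 0.106) was not called without tumour 80767.

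Chemokines were higher in BMDM for 13 of 23 tested (10, 10 and 13 higher and 1, 1 and 3 lower with 1 left out), with a median of 1.96, and the 1 lower member was Cxcl13. Ccl22 and Ccl17 are ligands of Ccr4 that draw regulatory T cells. Ccl22 was at 19.5, 7.20 and 41.9 CPM in BMDM, against 1.73, 0.446 and 1.29 in MG (log2 4.18 ± 0.37, adjusted p = 0.00424). Ccl17 was at 8.84, 3.89 and 34.4 CPM in BMDM, against 0.241, 0.198 and 0.235 in MG (log2 5.77 ± 0.59, adjusted p = 0.00548). Both were highest in BMDM of tumour 80769. Cxcl2, which attracts neutrophils, was at 131, 122 and 244 CPM in BMDM, against 30.7, 18 and 31.2 in MG (log2 2.60 ± 0.21, adjusted p = 0.00388). Cxcl16, the ligand of Cxcr6, was at 1538, 1359.9 and 929 CPM in BMDM, against 502, 378 and 271 in MG (log2 1.74 ± 0.16, adjusted p = 0.00468). No BMDM library of these 4 genes lay below an MG library.

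Not every chemokine followed. Ccl4 was at 225, 435 and 175 CPM in BMDM, against 1746, 1492 and 188 in MG and was not called, with MG of tumour 80769 far below MG of the other 2 (log2 −1.63 ± 0.57, adjusted p = 0.107; without it, log2 fold change −2.38, adjusted p = 0.0148). Ccl2, the ligand of Ccr2, was at 86.9, 157 and 72.1 CPM in BMDM, against 378, 236 and 71.3 in MG (log2 −0.89 ± 0.42, adjusted p = 0.199), and Ccl12 and Ccl5 were not called either. Of 16 chemokine receptors, 6 were higher (2, 4 and 6 higher and 1, 1 and 1 lower with 1 left out) and Cx3cr1 alone was lower. Ccr1, a receptor for Ccl5 and Ccl7, was at 956, 808 and 687 CPM in BMDM, against 81.9, 16.4 and 72.4 in MG (log2 4.09 ± 0.54, adjusted p = 0.0108). Cxcr4, the receptor for Cxcl12, was at 55.7, 91.9 and 66.1 CPM in BMDM, against 12.5, 17.8 and 17.6 in MG (log2 2.14 ± 0.15, adjusted p = 0.00336). Like Ccr2, Ccr1 was not called without tumour 80769 (log2 fold change 4.53, adjusted p = 0.142). Ccr1 (adjusted p = 0.0672) was not called without tumour 80766.

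Of 19 leukocyte integrins, 5 were higher (5, 4 and 7 higher and 0, 0 and 2 lower with 1 left out) and 0 lower. The shares of all genes were 10.4% higher and 7.18% lower. Itgb7, the beta7 chain that pairs with the product of Itga4, was at 48.7, 57.6 and 55.98 CPM in BMDM, against 3.94, 4.86 and 2.70 in MG (log2 3.84 ± 0.23, adjusted p = 0.00297). Itga9, an alpha chain related to that of Itga4, was at 214, 227 and 253 CPM in BMDM, against 57.4, 50.8 and 24.1 in MG (log2 2.47 ± 0.32, adjusted p = 0.0107). Neither gene overlapped between the groups. Itgal, the alpha chain of LFA-1, and Itgax, CD11c, were also higher (1.18 ± 0.17, adjusted p = 0.0122 and 2.01 ± 0.29, adjusted p = 0.013). Itgal (adjusted p = 0.0802) and Itgax (adjusted p = 0.0573) were not called without tumour 80767.

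Genes of the interleukin 1 system and other inflammatory cytokines gave 5 higher of 23 (5, 4 and 8 higher and 0, 0 and 6 lower with 1 left out). Over all genes 10.4% were higher and 7.18% lower, and without tumour 80769 17.3% and 15.7%. Il1b was at 4152, 2930.4 and 1588 CPM in BMDM, against 1099.5, 926 and 199 in MG (log2 2.18 ± 0.31, adjusted p = 0.0125). Il1rn, the receptor antagonist, was at 882, 839 and 665 CPM in BMDM, against 151, 155 and 116 in MG (log2 2.496 ± 0.15, adjusted p = 0.00297). The cytokine and both of its natural inhibitors, Il1rn and Il1r2, were higher in BMDM. Tnf was at 38.6, 30.2 and 27.1 CPM in BMDM, against 339, 214 and 21.8 in MG and was not called (log2 −1.996 ± 0.76, adjusted p = 0.131), as MG of tumours 80766 and 80767 were high and MG of tumour 80769 was not. Without tumour 80769 Tnf was lower in BMDM (log2 fold change −2.99, adjusted p = 7.08e-07).

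C-type lectins were the list with the highest median among the 39, 2.93, and 14 of 17 were higher (10, 9 and 15 higher with 1 left out), with 0 lower. Clec4n (dectin-2) was at 799.6, 521 and 160.2 CPM in BMDM, against 38.1, 15.97 and 16.1 in MG (log2 4.24 ± 0.38, adjusted p = 0.00446). Clec4e (mincle), which senses mycobacterial glycolipid, was at 52.1, 57.6 and 35.9 CPM in BMDM, against 2.07, 1.59 and 3.21 in MG (log2 4.39 ± 0.37, adjusted p = 0.0041). Neither overlapped between the groups. Clec7a (dectin-1), the beta-glucan receptor also used as a mark of reactive microglia, was at 2693, 1028 and 3195 CPM in BMDM, against 695, 338 and 1224 in MG (log2 1.64 ± 0.20, adjusted p = 0.00826). Clec4a1, Clec4a2 and Clec4a3, neighbours of similar sequence whose reads may be shared, were higher by 3.17 ± 0.30, 2.54 ± 0.21 and 2.24 ± 0.22 on the log2 scale (SE). The median was the same with Cd209a at its lower bound. Clec7a (adjusted p = 0.0774) was not called without tumour 80767.

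Ms4a genes, membrane proteins clustered on chromosome 19, were higher for 7 of 11 tested (5, 5 and 7 higher with 1 left out), with a median of 2.19. Ms4a7 was at 578, 604 and 822 CPM in BMDM, against 58.4, 46.4 and 173 in MG (log2 3.08 ± 0.32, adjusted p = 0.00575). Ms4a4c was at 611, 646 and 175 CPM in BMDM, against 68.7, 55.2 and 29.9 in MG (log2 3.08 ± 0.24, adjusted p = 0.00361). Of 14 Siglec and SIRP genes, 6 were higher and 2 lower (2, 3 and 5 higher and 0, 2 and 5 lower with 1 left out). Siglec1 (CD169) was at 72.3, 125 and 121 CPM in BMDM, against 34.1, 15.1 and 36.2 in MG (log2 1.94 ± 0.39, adjusted p = 0.0297), and it was not called without tumour 80769 (log2 fold change 2.03, adjusted p = 0.282). Cd47, the don't-eat-me signal, was at 359, 371 and 438 CPM in BMDM, against 215, 199 and 209.8 in MG (log2 0.89 ± 0.14, adjusted p = 0.0166). The 2 lower were Siglech and Siglec5 (−2.10 ± 0.26, adjusted p = 0.00931). Cd47 (adjusted p = 0.0737) and Siglec5 (adjusted p = 0.0565) were not called without tumour 80766. Cd47 (adjusted p = 0.13) was not called without tumour 80767.

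Toll-like receptor genes gave 7 higher and 1 lower of 17 (3, 3 and 11 higher and 0, 0 and 2 lower with 1 left out). Tlr8, an endosomal sensor of single-stranded RNA, was at 74.7, 58.6 and 69.1 CPM in BMDM, against 3.99, 2.13 and 14.3 in MG (log2 3.69 ± 0.53, adjusted p = 0.0131). Cd14, the lipopolysaccharide co-receptor, was at 1901, 1760.1 and 1316 CPM in BMDM, against 656, 751 and 247 in MG (log2 1.72 ± 0.28, adjusted p = 0.0166). Tlr3, the sensor of double-stranded RNA, was the lower one (log2 −0.80 ± 0.16, adjusted p = 0.0265). Of 10 Fc receptor genes 3 were higher and 0 lower (0, 0 and 3 higher and 0, 0 and 1 lower with 1 left out). Fcgr2b, the inhibitory receptor for IgG, was at 1564, 1422 and 1801 CPM in BMDM, against 605, 588 and 744 in MG (log2 1.30 ± 0.16, adjusted p = 0.00919). Fcgr4, an activating one, was higher by less (0.87 ± 0.20, adjusted p = 0.0376). Fcer1a, the alpha chain of the IgE receptor, was at 0.462, 1.83 and 2.64 CPM in BMDM, against 0, 0 and 0 in MG, at least 36.5-fold higher against the floor of 3 counts over the group (edgeR adjusted p = 0.0357). Cd14 (adjusted p = 0.0592), Fcer1a (adjusted p = 0.0579), Fcgr2b (adjusted p = 0.0576), Fcgr4 (adjusted p = 0.0839), Tlr3 (adjusted p = 0.169) and Tlr8 (adjusted p = 0.0955) were not called without tumour 80766. Cd14 (adjusted p = 0.0526), Fcgr2b (adjusted p = 0.0927), Fcgr4 (adjusted p = 0.146) and Tlr3 (adjusted p = 0.0943) were not called without tumour 80767.

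**Figure D2:**
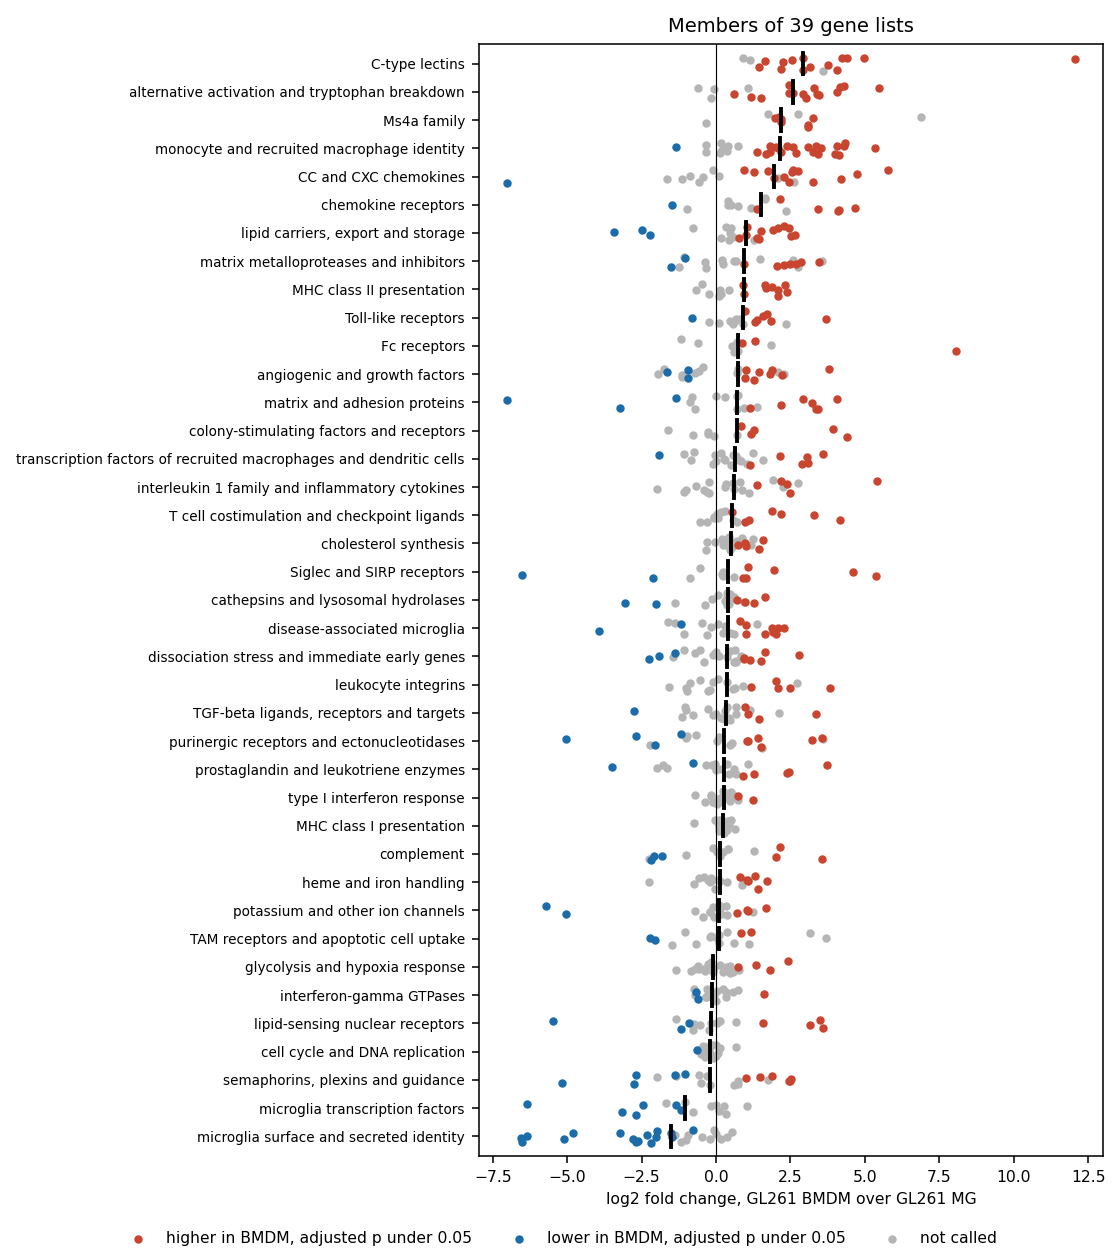
Fitted log2 fold change of GL261 BMDM over GL261 MG for every tested member of 39 gene lists, sorted by list median (black bar); red points were higher, blue points lower and grey points not called at an adjusted p under 0.05. C-type lectins head the plot at a median of 2.93 and microglia identity genes end it at −1.51. The points beyond 7.5 are Cd209a and Fcer1a, whose fitted values depend on the prior count because MG held no read.

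Alternative activation and tryptophan breakdown genes were higher for 15 of 19 tested (5, 9 and 15 higher with 1 left out) and lower for 0, with a median of 2.57. Mrc1, the mannose receptor CD206, was at 502, 303 and 2422 CPM in BMDM, against 42.7, 14.3 and 492 in MG (log2 3.41 ± 0.44, adjusted p = 0.0104). Arg1, which turns arginine into ornithine, was at 684, 731 and 6988 CPM in BMDM, against 83.99, 69.8 and 2919 in MG (log2 2.57 ± 0.47, adjusted p = 0.0239). MG of tumour 80769 lay above BMDM of tumours 80766 and 80767 for Arg1, so its groups overlapped while each tumour's own ratio was above 1. Arg1 (adjusted p = 0.129) and Mrc1 (adjusted p = 0.0775) were not called without tumour 80766. Arg1 (adjusted p = 0.0992) was not called without tumour 80767.

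Msr1, a scavenger receptor, was at 1295, 958 and 647 CPM in BMDM, against 205, 156 and 153 in MG (log2 2.44 ± 0.19, adjusted p = 0.00382), with tumour 80769 lowest among BMDM. Kynu, kynureninase, was higher together with Kmo at 79.02, 35.7 and 35.4 CPM in BMDM, against 6.06, 1.49 and 7.05 in MG (log2 3.46 ± 0.45, adjusted p = 0.0104), whereas Ido1, which starts the pathway, was too low to test. Il4ra, the interleukin 4 receptor chain, was at 911, 988 and 1117 CPM in BMDM, against 471, 423 and 210.2 in MG (log2 1.51 ± 0.32, adjusted p = 0.0317). Il4ra (adjusted p = 0.0572) and Kynu (adjusted p = 0.0801) were not called without tumour 80766. Il4ra (adjusted p = 0.101) was not called without tumour 80767.

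Several secreted proteins and a scavenger receptor differed more between tumours than between lineages. Chi3l3, the chitinase-like protein Ym1, was at 29.7, 33.6 and 25338 CPM in BMDM, against 0.0481, 1.39 and 4625 in MG. Retnla, the secreted protein Relm-alpha, was at 4.22, 2.52 and 5788 CPM in BMDM, against 0.433, 0.0496 and 1047 in MG. Tumour 80769 held nearly all of both. Ccl8 was at 577, 403 and 19627 CPM in BMDM, against 101, 42.4 and 3459 in MG. Ccl6 was at 305, 383 and 7021 CPM in BMDM, against 71.6, 76.6 and 1275 in MG. Cd163, the haemoglobin scavenger receptor, was at 0.462, 1.26 and 993 CPM in BMDM, against 0.722, 2.97 and 108 in MG. Both libraries of tumour 80769 were high for each of them and the other 4 libraries were far lower. Within a tumour Chi3l3, Retnla, Ccl8 and Ccl6 were higher in BMDM and were called (log2 4.29 ± 0.95, adjusted p = 0.0375; 3.01 ± 0.42, adjusted p = 0.0115; 2.75 ± 0.25, adjusted p = 0.00466; and 2.29 ± 0.19, adjusted p = 0.00388). Cd163 was not called (log2 1.08 ± 1.06, adjusted p = 0.514). Chi3l3 (adjusted p = 0.0625) and Retnla (adjusted p = 0.0663) were not called without tumour 80766. Chi3l3 (adjusted p = 0.146) was not called without tumour 80767.

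In all, 17 genes were at 100 CPM or more in BMDM of tumour 80769 and at least 10-fold above both other BMDM libraries, and no gene was 10-fold below them from that level; these genes were chosen after their values were seen and carry no test. Among the 17 were Ear11, Atp6v0d2 (an osteoclast proton pump subunit), Cbr2, Folr2, Ctsk (cathepsin K) and Postn (periostin). Of the 17, 12 had an MG level between 10% and 30% of the BMDM level in the same tumour. For Chi3l3, Retnla, Ccl8, Ccl6 and Ccl9 that share was 18.3%, 18.1%, 17.6%, 18.2% and 18.8%. Over the 831 genes called higher with at least 50 CPM in every BMDM library, it had a median of 46.0% in this tumour, with 20.3% at the 10th percentile. It was 1.44% for Il1r2, the lowest of the 831. Postn went the other way, with 0.520, 4.35 and 119 CPM in BMDM, against 11.2, 12.7 and 344 in MG. Ctsk and Postn were called with all tumours (log2 1.27 ± 0.27, adjusted p = 0.0312 and log2 −2.14 ± 0.51, adjusted p = 0.0443) and not without tumour 80769 (log2 fold changes 0.83, adjusted p = 0.223 and −2.64, adjusted p = 0.0942). Ctsk (adjusted p = 0.0576) was not called without tumour 80766. Ctsk (adjusted p = 0.0839) and Postn (adjusted p = 0.0965) were not called without tumour 80767.

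**Figure D3:**
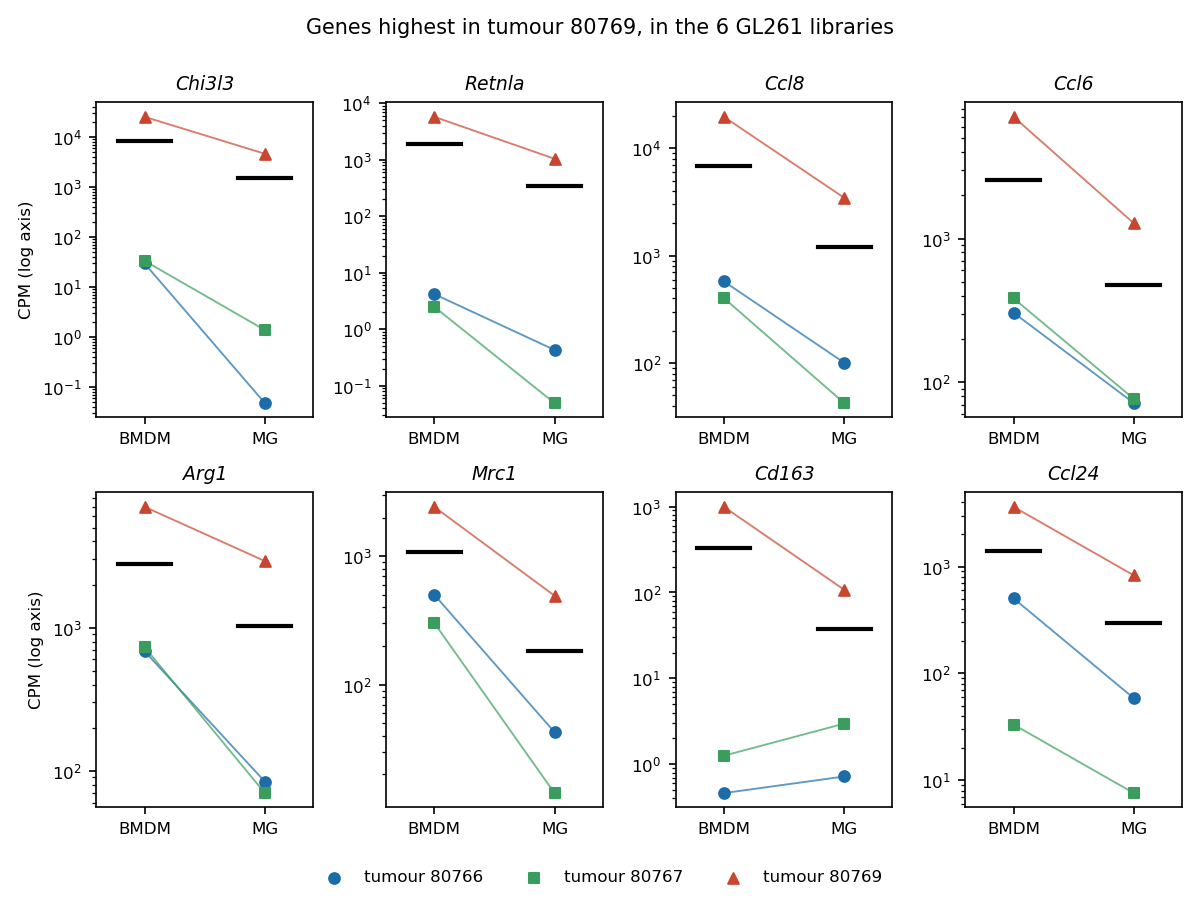
CPM of 8 genes in the 6 GL261 libraries on log axes, with BMDM left and MG right, 1 symbol and line per tumour and black bars at the group means (n = 3). For all 8 genes both libraries of tumour 80769 lie above the same lineage's libraries of tumours 80766 and 80767, and within tumour 80769 BMDM lies above MG.

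Lipid handling genes were mostly higher in BMDM: 12 of 23 against 3 lower (8, 8 and 15 higher and 0, 0 and 3 lower with 1 left out), with a median of 0.99. Apoe, the lipid carrier apolipoprotein E, was at 15426, 23794 and 11985 CPM in BMDM, against 3126, 6607 and 3891 in MG (log2 1.92 ± 0.25, adjusted p = 0.00991), so it ranked with Lyz2 and Cd74 in abundance. Dgat1, which makes triglyceride, was even across tumours at 207, 204 and 198 CPM in BMDM, against 39.5, 39.02 and 46.4 in MG (log2 2.28 ± 0.14, adjusted p = 0.00297). Fabp5, a fatty acid carrier, was highest in tumour 80769, at 430.5, 338 and 1553 CPM in BMDM, against 70.7, 123 and 345 in MG (log2 2.07 ± 0.25, adjusted p = 0.00893). Apoe was not called without tumour 80766 (adjusted p = 0.0552) or without tumour 80767 (adjusted p = 0.0935).

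Pltp, a phospholipid transfer protein, and Soat1, which esterifies cholesterol for storage, were higher (2.67 ± 0.27, adjusted p = 0.00527 and 1.39 ± 0.15, adjusted p = 0.00648). Cd36, the fatty acid and oxidised lipoprotein receptor, was lower, at 52.7, 16.4 and 28.7 CPM in BMDM, against 315, 123 and 63.2 in MG (log2 −2.22 ± 0.37, adjusted p = 0.0191). The nuclear receptors Nr1h3 (LXR-alpha) and Pparg, which control such genes, were higher. Nr1h3 was at 46.6, 48.1 and 65.4 CPM in BMDM, against 5.003, 4.02 and 9.67 in MG (log2 3.17 ± 0.21, adjusted p = 0.003). Pparg was at 15.3, 8.98 and 24.8 CPM in BMDM, against 1.01, 0.892 and 2.54 in MG (log2 3.49 ± 0.26, adjusted p = 0.00343). Both were highest in BMDM of tumour 80769. In cholesterol synthesis 5 of 22 genes were higher and 0 lower (2, 2 and 8 higher with 1 left out), against 10.4% and 7.18% of all genes. Pmvk, phosphomevalonate kinase, was at 80.2, 83.7 and 69.2 CPM in BMDM, against 23.8, 26.7 and 26.3 in MG (log2 1.59 ± 0.14, adjusted p = 0.00424), with no overlap. Cd36 was not called without tumour 80766 (adjusted p = 0.115) or without tumour 80767 (adjusted p = 0.067).

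In the list of disease-associated microglia, 9 of 24 were higher in BMDM and 2 lower (5, 3 and 10 higher and 1, 1 and 7 lower with 1 left out). The higher members included Apoe, Clec7a, Fabp5, Itgax and Lpl, which macrophages in general also express. Cst7, an inhibitor of cathepsins, was lower at 12.2, 20.1 and 33.5 CPM in BMDM, against 413, 339.5 and 204 in MG (log2 −3.92 ± 0.52, adjusted p = 0.0107). The other lower member was the tetraspanin Cd9, at 434, 522 and 454 CPM in BMDM, against 1089.7, 1220.3 and 876 in MG (log2 −1.17 ± 0.17, adjusted p = 0.0122). For both, all BMDM lay below all MG. Trem2, the lipid receptor of this state, was at 188, 219.7 and 302 CPM in BMDM, against 385, 391 and 221 in MG and was not called (log2 −0.49 ± 0.32, adjusted p = 0.332; without tumour 80769, log2 fold change −0.95, adjusted p = 4.88e-04). Cd9 was not called without tumour 80766 (adjusted p = 0.0839) or without tumour 80767 (adjusted p = 0.107). Lpl was not called without tumour 80766 (adjusted p = 0.111) or without tumour 80767 (adjusted p = 0.0597) either.

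Complement genes gave 3 higher and 3 lower of 16 (3, 2 and 4 higher and 3, 2 and 4 lower with 1 left out). Over all genes 10.4% were higher and 7.18% lower, and without tumour 80769 17.3% and 15.7%. Cfb, factor B, was at 2754, 2701 and 897 CPM in BMDM, against 794, 463 and 200.5 in MG (log2 2.16 ± 0.22, adjusted p = 0.0053). Cfp, properdin, was at 267, 203 and 528 CPM in BMDM, against 13.8, 14.5 and 85.3 in MG (log2 3.56 ± 0.36, adjusted p = 0.00565). Both act in the alternative pathway. C4b, of the classical pathway, was lower at 225, 205 and 211 CPM in BMDM, against 1639.8, 991 and 561 in MG (log2 −2.19 ± 0.31, adjusted p = 0.0121). C2 and the C1 inhibitor Serping1, of the same pathway, were lower too (−1.83 ± 0.21, adjusted p = 0.00701 and −2.07 ± 0.21, adjusted p = 0.00548). The third higher member was Itgax, a chain of complement receptor 4. C4b (adjusted p = 0.0592) was not called without tumour 80767.

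Purinergic genes gave 6 higher and 4 lower of 20 (3, 5 and 8 higher and 1, 2 and 5 lower with 1 left out). The adenosine receptors Adora2b and Adora2a were higher (3.22 ± 0.30, adjusted p = 0.00466 and 3.54 ± 0.61, adjusted p = 0.0201), Adora1 and Adora3 lower (−5.06 ± 0.41, adjusted p = 0.00388 and −2.04 ± 0.24, adjusted p = 0.00826). P2ry14, a receptor for UDP sugars, was at 97.5, 76.8 and 63.3 CPM in BMDM, against 35.7, 30.05 and 18.3 in MG (log2 1.52 ± 0.15, adjusted p = 0.00512), with no overlap. Among genes of apoptotic cell uptake 2 of 17 were higher and 2 lower, against 10.4% and 7.18% of all genes. With 1 left out 0, 0 and 5 were higher and 1, 2 and 6 lower, against 17.3% and 15.7% of all genes without tumour 80769. The lower uptake genes were Cd36 and Pros1. Pros1, protein S, was at 69.5, 50.7 and 51.7 CPM in BMDM, against 338, 250.3 and 152 in MG (log2 −2.06 ± 0.20, adjusted p = 0.00493). The receptors Axl and Mertk were not called (0.61 ± 0.27, adjusted p = 0.178 and 0.05 ± 0.33, adjusted p = 0.937); without tumour 80769 Axl was higher in BMDM and Mertk lower (log2 fold changes 0.96, adjusted p = 8.96e-04 and −0.44, adjusted p = 0.018). Adora3 (adjusted p = 0.0565) was not called without tumour 80766.

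Matrix proteases and their inhibitors were higher for 7 of 21 and lower for 2 (6, 6 and 11 higher and 1, 1 and 4 lower with 1 left out). Mmp14, the membrane-bound collagenase, was at 751, 780.4 and 489.6 CPM in BMDM, against 163, 129 and 76.04 in MG (log2 2.49 ± 0.17, adjusted p = 0.00306). Adam8, a membrane-bound protease, was at 270.1, 449.6 and 1228 CPM in BMDM, against 49.5, 100.4 and 261 in MG (log2 2.27 ± 0.15, adjusted p = 0.003). Plaur, the urokinase receptor, was at 1262, 872 and 739.7 CPM in BMDM, against 306, 267 and 139 in MG (log2 2.05 ± 0.20, adjusted p = 0.00493). Timp1, an inhibitor of these proteases, was lower at 14.7, 29.8 and 77.02 CPM in BMDM, against 41.1, 53.7 and 137 in MG (log2 −1.06 ± 0.18, adjusted p = 0.0194), with overlapping groups. Mmp13, a collagenase, was at 1005, 434 and 755 CPM in BMDM, against 40.5, 16.3 and 378 in MG and was not called (log2 3.57 ± 0.91, adjusted p = 0.0515; without tumour 80769, log2 fold change 4.67, adjusted p = 1.90e-07). Timp1 was not called without tumour 80766 (adjusted p = 0.0912) or without tumour 80767 (adjusted p = 0.0722).

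Matrix and adhesion proteins gave 7 higher and 3 lower of 20 (4, 5 and 9 higher and 1, 2 and 3 lower with 1 left out). Thbs1, thrombospondin 1, was at 1018, 1329 and 1185 CPM in BMDM, against 115, 101 and 167 in MG (log2 3.22 ± 0.23, adjusted p = 0.00343). Emilin2, an extracellular glycoprotein, was at 228, 296 and 348 CPM in BMDM, against 15.7, 17.8 and 68.4 in MG (log2 3.41 ± 0.39, adjusted p = 0.00757). Of 22 growth factors 8 were higher and 3 lower (3, 4 and 10 higher and 0, 0 and 6 lower with 1 left out). Vegfa, the main angiogenic factor, was at 263, 351 and 356 CPM in BMDM, against 43.3, 88.8 and 199 in MG (log2 1.804 ± 0.35, adjusted p = 0.0276). Pdgfc, a ligand of PDGF receptor alpha, was at 37.5, 27.5 and 69.1 CPM in BMDM, against 2.26, 0.892 and 9.91 in MG (log2 3.79 ± 0.43, adjusted p = 0.00753). Hgf, hepatocyte growth factor, was at 50.4, 59.1 and 36.6 CPM in BMDM, against 15.4, 12.8 and 5.29 in MG (log2 2.22 ± 0.24, adjusted p = 0.0063). None of the 3 overlapped between the groups. Tgfa, a ligand of the EGF receptor, was lower at 19.9, 31.9 and 46.2 CPM in BMDM, against 121, 94.2 and 81.8 in MG (log2 −1.66 ± 0.35, adjusted p = 0.0334). Pdgfb was at 8.09, 15.4 and 6.95 CPM in BMDM, against 76.9, 60.2 and 10.4 in MG and was not called (log2 −1.96 ± 0.51, adjusted p = 0.0559; without tumour 80769, log2 fold change −2.59, adjusted p = 0.0199). Emilin2 (adjusted p = 0.0565), Pdgfc (adjusted p = 0.0571), Tgfa (adjusted p = 0.073) and Vegfa (adjusted p = 0.0912) were not called without tumour 80766. Tgfa (adjusted p = 0.114) and Vegfa (adjusted p = 0.117) were not called without tumour 80767.

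The colony-stimulating factor genes gave 5 higher and 0 lower of 11 (1, 1 and 5 higher and 0, 0 and 3 lower with 1 left out). The receptor chains for GM-CSF, Csf2ra and Csf2rb, were higher (1.27 ± 0.19, adjusted p = 0.0144 and 1.18 ± 0.28, adjusted p = 0.0434). Csf1r, the receptor that keeps both lineages alive, was at 2959, 2284 and 3168 CPM in BMDM, against 4782, 3498 and 1407 in MG and was not called (log2 −0.07 ± 0.42, adjusted p = 0.926). Its ligand Csf1 was at 54.99, 49.7 and 96.2 CPM in BMDM, against 294, 302 and 71.5 in MG (log2 −1.61 ± 0.67, adjusted p = 0.156). Without tumour 80769 both were lower in BMDM (log2 fold changes −0.67, adjusted p = 0.00844 and −2.52, adjusted p = 1.06e-06). Csf2ra (adjusted p = 0.0565) and Csf2rb (adjusted p = 0.107) were not called without tumour 80766. Csf2ra (adjusted p = 0.058) and Csf2rb (adjusted p = 0.0945) were not called without tumour 80767.

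Guidance genes gave 6 higher and 5 lower of 21 (4, 4 and 9 higher and 0, 1 and 6 lower with 1 left out). For this list and the next, the shares of all genes were 10.4% higher and 7.18% lower. Sema4a was at 184, 129.9 and 112 CPM in BMDM, against 32.3, 23.4 and 20.2 in MG (log2 2.48 ± 0.12, adjusted p = 0.00297). Its groups did not overlap. The plexins Plxnc1 and Plxnd1 were also higher (2.52 ± 0.22, adjusted p = 0.00424 and 2.46 ± 0.24, adjusted p = 0.00496). Epha2 and Plxna4 were lower (−2.77 ± 0.45, adjusted p = 0.0184 and −5.19 ± 1.00, adjusted p = 0.027). In iron handling 6 of 21 were higher and 0 lower (4, 3 and 8 higher and 0, 0 and 3 lower with 1 left out). The higher ones included the biliverdin reductases Blvrb and Blvra (1.39 ± 0.12, adjusted p = 0.00424 and 1.31 ± 0.13, adjusted p = 0.00537) and the cystine transporter Slc7a11 (1.71 ± 0.17, adjusted p = 0.0053). Of the genes of lipid mediators, Ptgs2 (COX-2) was at 359.7, 287 and 210.2 CPM in BMDM, against 83.3, 73.03 and 25.2 in MG (log2 2.37 ± 0.25, adjusted p = 0.00586). Hpgd, which breaks prostaglandins down, was lower at 2.89, 3.72 and 1.81 CPM in BMDM, against 49.5, 68.3 and 7.05 in MG (log2 −3.51 ± 0.50, adjusted p = 0.0128). Epha2 (adjusted p = 0.0571), Hpgd (adjusted p = 0.0882) and Plxna4 (adjusted p = 0.1) were not called without tumour 80766. Epha2 (adjusted p = 0.078), Hpgd (adjusted p = 0.0541) and Plxna4 (adjusted p = 0.114) were not called without tumour 80767.

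Type I interferon response genes were higher for 2 of 25 and lower for 0 (0, 0 and 10 higher and 0, 0 and 1 lower with 1 left out), with a median of 0.27. Irf7 was at 1145, 997 and 447 CPM in BMDM, against 429.8, 311 and 285 in MG (log2 1.24 ± 0.24, adjusted p = 0.0262). Cell cycle genes gave 0 higher and 1 lower of 25 (0, 0 and 3 higher and 0, 0 and 2 lower with 1 left out). The lower one, Cdk1, which drives entry into mitosis, was at 84.1, 74.9 and 95.9 CPM in BMDM, against 121, 115 and 157 in MG (log2 −0.63 ± 0.12, adjusted p = 0.0255). Mki67, a proliferation marker, was at 121, 92.05 and 67.8 CPM in BMDM, against 124, 94.5 and 107 in MG and was not called (log2 −0.25 ± 0.17, adjusted p = 0.347). Glycolysis and hypoxia genes were higher for 4 of 25 and lower for 0 (1, 1 and 7 higher and 0, 1 and 5 lower with 1 left out). Ldha, lactate dehydrogenase A, was at 1496, 1860.5 and 1903 CPM in BMDM, against 1196, 1346 and 1643 in MG (log2 0.33 ± 0.17, adjusted p = 0.234) and was not called. Interferon-gamma GTPases gave 1 higher and 2 lower of 19 (1, 1 and 3 higher and 0, 0 and 5 lower with 1 left out). Of all genes 10.4% were higher and 7.18% lower with all tumours. In that fit the shares of these 4 lists were near or below that except for higher glycolysis and hypoxia genes. Without tumour 80769, 17.3% of all genes were higher and 15.7% lower. There the shares of higher type I interferon genes, of lower interferon-gamma GTPases and of glycolysis and hypoxia genes both ways were above that. Cdk1 (adjusted p = 0.139) and Irf7 (adjusted p = 0.113) were not called without tumour 80766. Cdk1 (adjusted p = 0.175) and Irf7 (adjusted p = 0.148) were not called without tumour 80767.

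Immediate early and stress genes, which tissue dissociation can raise, gave 6 higher and 3 lower of 25 (3, 2 and 6 higher and 0, 0 and 9 lower with 1 left out). Over all genes 10.4% were higher and 7.18% lower, and without tumour 80769 17.3% and 15.7%. Nr4a2 was at 130.2, 103 and 158 CPM in BMDM, against 22.4, 14.9 and 19.4 in MG (log2 2.78 ± 0.16, adjusted p = 0.00297). Egr1 was at 645, 654 and 462 CPM in BMDM, against 2073, 1945 and 817 in MG (log2 −1.37 ± 0.23, adjusted p = 0.0192). Egr1 was not called without tumour 80766 (adjusted p = 0.0955) or without tumour 80767 (adjusted p = 0.126).

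The same lineage contrast in 3 GEMM tumours was set beside that in GL261 by the interaction of lineage and model over 12 libraries, with the tumour as a block. Of 14813 genes tested, 105 (0.709%) had a BMDM to MG ratio that was larger in GL261 and 189 (1.28%) one that was larger in GEMM at an adjusted p under 0.05 in edgeR. These counts rest on few tumours. Leaving out tumour 80766 left 0 genes each way (2769 at an unadjusted p under 0.05), leaving out tumour 80767 left 2 and 13, and leaving out the GEMM tumours 68702, BB30101 or BB30105 left 10 and 10, 31 and 85, or 13 and 28. Without tumour 80769 they were 177 and 315. In GEMM tumours 2178 genes (14.7%) were higher in BMDM in the same fit.

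Of 16 MHC class II genes, 5 had a smaller ratio in GL261, 0 had a larger one and 11 were not called. Levels in this comparison are CPM scaled over the 12 libraries, so they differ from those above. Ciita averaged 128 ± 68.05 (BMDM) and 29.9 ± 13.7 CPM (MG) in GL261, against 244 ± 71.7 (BMDM) and 12.2 ± 7.02 CPM (MG) in GEMM (interaction −2.46 ± 0.24, adjusted p = 0.0111). H2-Eb1, H2-Ab1, H2-Aa and Cd74 differed in the same direction (interaction −1.84 ± 0.26, adjusted p = 0.0207; −1.32 ± 0.25, adjusted p = 0.0452; −1.69 ± 0.24, adjusted p = 0.0211; and −1.57 ± 0.24, adjusted p = 0.0256). H2-Ab1 averaged 11854 ± 5205 (BMDM) and 2283 ± 741 CPM (MG) in GL261, against 11140.3 ± 3389 (BMDM) and 969 ± 339 CPM (MG) in GEMM, so the MG levels stood further apart between the models than the BMDM levels. H2-DMb1 and H2-DMa were not called (interaction −0.15 ± 0.20, adjusted p = 0.722 and −0.19 ± 0.22, adjusted p = 0.696).

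**Figure D4:**
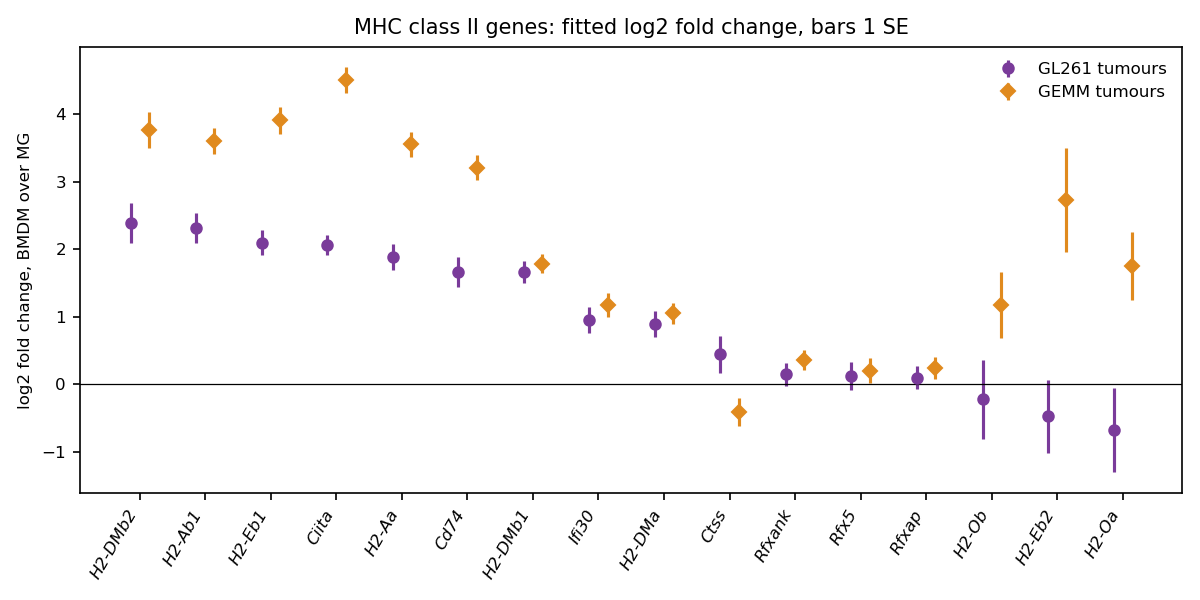
Fitted log2 fold change of BMDM over MG, with bars of 1 SE, for 16 MHC class II presentation genes in GL261 tumours (circles, left of each pair) and GEMM tumours (diamonds), n = 3 tumours each. For Ciita, H2-Eb1, H2-Ab1, H2-Aa and Cd74 the GL261 value is below the GEMM value and the interaction was called.

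Sgk1, a kinase induced by glucocorticoids, had a fitted log2 fold change of 1.62 in GL261 and −0.78 in GEMM. It averaged 1168 ± 209.99 (BMDM) and 383 ± 104 CPM (MG) in GL261, against 729 ± 61.04 (BMDM) and 1339.95 ± 254 CPM (MG) in GEMM (interaction 2.38 ± 0.19, adjusted p = 0.0101). Fcgr2b averaged 1420.2 ± 167 (BMDM) and 576 ± 88.1 CPM (MG) in GL261, against 526 ± 87.8 (BMDM) and 781 ± 121 CPM (MG) in GEMM (interaction 1.76 ± 0.17, adjusted p = 0.0111). Both had opposite fitted signs in the 2 models, as had Myo1e, a myosin motor, Sqrdl, a sulfide oxidising enzyme, and Clec5a, a receptor that signals through Dap12 (interaction 2.13, 1.37 and 1.91). Aldh3b1, an aldehyde dehydrogenase, was higher in BMDM of GL261 by 1.85 and of GEMM by 0.26 on the log2 scale (interaction 1.56 ± 0.17, adjusted p = 0.0117).

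Kit, the receptor for stem cell factor, was level between the lineages in GL261 but not in GEMM, averaging 44.1 ± 3.60 (BMDM) and 55.8 ± 25.6 CPM (MG) in GL261, against 118 ± 39.4 (BMDM) and 4.95 ± 3.88 CPM (MG) in GEMM (interaction −5.10 ± 0.48, adjusted p = 0.0111). Slc25a24, a mitochondrial carrier, averaged 25.7 ± 7.09 (BMDM) and 31.4 ± 12.02 CPM (MG) in GL261, against 20.5 ± 3.79 (BMDM) and 1.88 ± 0.960 CPM (MG) in GEMM (interaction −3.87 ± 0.26, adjusted p = 0.00576). Neb, a giant muscle filament protein, averaged 86.6 ± 46.5 (BMDM) and 180.5 ± 93.9 CPM (MG) in GL261, against 3.09 ± 2.03 (BMDM) and 0.792 ± 0.474 CPM (MG) in GEMM (interaction −3.15 ± 0.28, adjusted p = 0.0103). It was lower in BMDM of GL261 (log2 −1.09 ± 0.18, adjusted p = 0.0177), but was not called without tumour 80766 (adjusted p = 0.101). For Neb, Kit and Slc25a24 the MG library of tumour 80769, which also had the highest glioma and oligodendrocyte precursor marker sum, was the highest of the 6 GL261 libraries, and the part of tumour cell RNA in these values was not tested. Nup210, a nuclear pore protein, and Tgtp1, an interferon-induced GTPase with a near-identical copy, complete the 6 (interaction −1.99 ± 0.17, adjusted p = 0.0103 and −4.67 ± 0.43, adjusted p = 0.0111).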

How the data were processed

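The authors deposited 1 table of raw counts per gene symbol for 20 libraries. Per the submitters' processing notes the build was mm10 and the tools included STAR 2.5.0e, CASAVA 1.8, DESeq2 and HTSeq; the sources used here do not give their roles, the annotation or the strand setting. Reads of overlapping genes on opposite strands and of near-identical copies (Ly6, H2, Sirpb1, Clec4a, Chi3l3, Tgtp, S100 and Ms4a genes) may therefore be mixed. Older symbols were kept as the table gives them (Chi3l3 is now Chil3), and 23079 of 23329 symbols matched the reference, 2331 of them by an older name; coordinates are GRCm38.p6.

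From these counts, low genes were removed by filterByExpr (at least 10 counts, 15 in total), libraries scaled by TMM and genes tested in R 4.3.3 with edgeR 4.0.16 (robust quasi-likelihood, called at an adjusted p under 0.05, Benjamini-Hochberg, across every gene tested). The tumour was a block. Same-numbered libraries deviated together from the group means at r = 0.44, 0.25 and 0.43 across genes (highest between other numbers 0.09), and the design text calls the cells matched within a tumour. The models were compared by an interaction over 12 libraries. Alternatives used DESeq2 1.42.0, limma-voom (limma 3.58.1), other scaling, filter, block and libraries. No 2 libraries of a group agreed within sampling noise. The tests were tried on simulated counts, where false calls were clearly more frequent than the threshold allows and many small changes went uncalled. At these totals, genes under 1 CPM rest on few reads, and floors cover counting error only.

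The 39 gene lists, 16 marker lists and members were chosen with earlier results of these data known. Named genes are the 12 largest changes per direction among called genes with at least 20 CPM in 1 group, no overlap and 1 direction in all tumours, up to 6 called members per list with the smallest p and any called member against its list's majority, the genes of the sort and lineage, and 6 genes per direction of the interaction. Other list members, and the genes of tumour 80769, were named after their values were seen. A few genes that the rule names are not reported here. A fold change is BMDM over MG, with its SE from the fit.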

Additional observations from a re-analysis of the deposited data

Results flagged for a closer look

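For 25 of 204 named genes, the BMDM to MG difference itself differed between GL261 and GEMM tumours in the interaction test (edgeR adjusted p under 0.05). Over all genes tested, 0.709% had a larger and 1.28% a smaller ratio in GL261. The 25 include 6 genes per direction that were named because of this test, so their presence was fixed in advance. Each value is the GL261 minus the GEMM log2 fold change over 3 tumours of each model. Larger BMDM to MG ratios in GL261 were found for Sgk1 (2.38), Myo1e (2.13), Fcgr2b (1.76), Sqrdl (1.37), Clec5a (1.91), Aldh3b1 (1.56), Clec4a3 (1.81), Cd14 (2.03), Clec7a (1.45), Plaur (1.37), Ccl6 (1.68) and Blvra (0.80). Ratios were smaller in GL261 for Slc25a24 (−3.87), Nup210 (−1.99), Neb (−3.15), Tgtp1 (−4.67), Kit (−5.10), Timp1 (−2.40), Gm4980 (−3.24) and Cd40 (−1.04). The MHC class II genes among them were Ciita (−2.46), H2-Eb1 (−1.84), H2-Aa (−1.69), Cd74 (−1.57) and H2-Ab1 (−1.32), all smaller in GL261. Without tumour 80766 no gene passed this test, as given above.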

How the results depend on the processing

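The number of genes that passed changed with the replicate block, the tumours included, the test and the filter. With no replicate block 599 genes were higher and 234 lower, and the interaction left 7 and 14 in the order given above; 824 of the 2475 called genes were kept and none changed sign. DESeq2 called 1946 higher and 1553 lower, and 679 and 606 for the interaction, a share of 52.8% for ratios larger in GL261 against 35.7% in edgeR. For these larger ratios limma-voom gave 175 and no filter 225. With 1 tumour left out the counts ran from 437 to 2345 (higher) and from 81 to 2133 (lower), and for the interaction from 0 to 177 and from 0 to 315. All other alternatives kept the counts within 1.5 times. Of 204 named genes tested, 171 of them called, 70 lost their call with no replicate block and 67, 57 and 7 without tumour 80766, 80767 or 80769. Without tumour 80769, 12 gained a call with the same sign, and Mertk gained one with the opposite sign. Among named genes called in the main fit or in the alternative, Mertk alone changed sign. Its log2 fold change ran from 0.34 without tumour 80766 to −0.44 without tumour 80769. Sign changes of genes called in neither fit were not counted. The causes were not tested. Low genes are limited by depth, as 1 read is near 0.05 CPM.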

Other observations

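Cathepsins and lysosomal hydrolases gave 4 higher and 2 lower of 24 in BMDM (1, 0 and 4 higher and 1, 1 and 6 lower with 1 left out), against 10.4% higher and 7.18% lower of all genes. Bracketed counts are those with tumour 80766, 80767 or 80769 left out, in that order. Ctsc, which activates granule proteases, was at 6879, 4497 and 4264 CPM in BMDM, against 2679, 1396 and 1155 in MG (log2 1.64 ± 0.21, adjusted p = 0.00978). Ctsf, cathepsin F, was at 13.2, 7.38 and 16.3 CPM in BMDM, against 142, 118 and 53.7 in MG (log2 −3.05 ± 0.47, adjusted p = 0.0161). Ctsf (adjusted p = 0.11) was not called without tumour 80766. Ctsc (adjusted p = 0.101) was not called without tumour 80767.

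Genes of TGF-beta ligands, receptors and targets gave 4 higher and 1 lower of 22 (3, 1 and 7 higher and 0, 0 and 5 lower with 1 left out). Of all genes 10.4% were higher and 7.18% lower. Tgfb1 was at 155, 121 and 128 CPM in BMDM, against 95.6, 68.03 and 46.8 in MG (log2 0.99 ± 0.18, adjusted p = 0.0237). Among ion channels 4 were higher and 2 lower of 18 (1, 1 and 5 higher and 0, 1 and 5 lower with 1 left out). Kcna3, a voltage-gated potassium channel, was at 86.4, 94.5 and 48.2 CPM in BMDM, against 30.9, 31.4 and 12.1 in MG (log2 1.68 ± 0.16, adjusted p = 0.00484). Lipid mediator genes gave 5 higher and 2 lower of 20 (1, 3 and 6 higher and 0, 0 and 4 lower with 1 left out). Lipid-sensing nuclear receptors gave 4 higher and 3 lower of 17 (3, 3 and 4 higher and 0, 0 and 7 lower with 1 left out). Tgfb1 was not called without tumour 80766 (adjusted p = 0.0605) or without tumour 80767 (adjusted p = 0.0943).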
